A study of Mus musculus with 12 samples.

Results

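The peroxisome proliferator-activated receptors (PPARs), the retinoid X receptors (RXRs) and the PGC-1 coactivators that bind them were examined as a family of 8 genes in the amygdala, the brain region known for threat processing. The members were Pparg, Ppara and Ppard, then Rxra, Rxrb and Rxrg, and finally Ppargc1a and Ppargc1b, chosen by gene symbol through GENCODE M21 from the 47729 genes counted. Pparg was already known to be among the genes that the study called between its anxiety groups, so the levels of the 8 genes in those groups are a description. Counts of genes called in the fit of the groups are printed beside their background, as a record of the fit, and support nothing about the members or the related gene lists. The behavior measures were tested across all genes, but they are not independent of the groups either, since the study chose the axis of its groups for its relation to the EPM and LD measures.

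All animals were inbred female C57/BL6 mice whose behavior was scored at 9 to 11 weeks of age on a raised cross-shaped maze with open and closed arms (elevated plus maze, EPM), in a box with a lit and a dark room (light/dark test, LD), and toward a stranger mouse in adjoining chambers (social interaction test, SIT). Bilateral amygdala was removed afterwards and sequenced with 1 library per mouse, so that each sample is 1 animal. The groups were 3 'less anxious' mice (3, 7 and 12), 4 'anxious' mice (1, 4, 8 and 11) and 4 'more anxious' mice (2, 6, 9 and 10), and mouse 5 carries no group. The labels name no treatment or genotype that sets these groups apart. They were cut from the second principal component of the same expression data, so a difference in expression between them is not independent of how they were made. Nor do the groups follow EPM and LD behavior in every mouse. Of the 11 mice with a group, more anxious mouse 6 had the most open-arm time (29.2%), light time (46.6%) and light distance (41.9%).

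PPARs are ligand-activated transcription factors that bind fatty acids and their derivatives. Each one binds DNA as a heterodimer with an RXR, which is itself a receptor for 9-cis retinoic acid and other lipids, at paired AGGTCA half-sites spaced by 1 base. PPARγ is best known as the regulator of fat cell formation and the target of thiazolidinediones, PPARα and PPARδ control fatty acid oxidation, and PGC-1α and PGC-1β drive mitochondrial biogenesis through these and other receptors. In brain, PGC-1α is known for its abundance in parvalbumin interneurons and RXRγ for its high level in the striatum.

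Pparg lies on chromosome 6 (GRCm38, chr6:115360951-115490399, plus strand), and RefSeq gives it 3 start sites, the last of them 60922 bases beyond the first. The gene counts add up transcripts from all 3, so a shift from one start to another cannot be seen in them. The 60 bases before each start (RefSeq, GRCm38.p6, plus strand) are shown because Pparg was the most variable member, with the AGGTCA half-site in capitals where it occurs on either strand. The windows are chr6:115361084-115361143, chr6:115362289-115362348 and chr6:115422006-115422065 in that order.
Pparg start 1: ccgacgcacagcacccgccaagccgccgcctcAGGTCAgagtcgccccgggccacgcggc
Pparg start 2: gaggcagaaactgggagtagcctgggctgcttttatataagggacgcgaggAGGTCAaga
Pparg start 3: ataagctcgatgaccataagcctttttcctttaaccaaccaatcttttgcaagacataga
The first window is 78.3% G and C, the second 53.3% and the third 36.7%. The half-site is in the first and the second, and in 3.4% of the 32851 such windows of all RefSeq start sites.

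The other members lie on chromosome 15 (Ppara, chr15:85734983-85802819), chromosome 17 (Ppard, chr17:28232700-28301474, and Rxrb, chr17:34031812-34038399), chromosome 2 (Rxra, chr2:27676440-27762957) and chromosome 1 (Rxrg, chr1:167598384-167639623), all on the plus strand. The coactivator gene Ppargc1a lies on the minus strand at chr5:51454250-51567726. No annotated gene shared exon sequence with a member, and the transcripts that overlap their introns had at most 13 estimated counts in a mouse.

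The RefSeq promoter table was used for 7 members, all but Ppargc1b, with 12 windows from 250 bases before to 50 after a start. Both strands were searched. The full paired site, AGGTCA repeated after 1 base of any kind, was in 0 of the 12 windows and in 0.0396% of all 32851. A looser form, GGNCA and again GGNCA with NA between them, where N is any base, also matches every full site and was in 1 window, that of the second start of Rxra, and in 0.801% of all. It is printed with its matched letters in capitals because Rxra is itself a partner that binds such repeats.
Rxra second start, chr2:27709209-27709238: ctgagtaatGGTCATAGGCCAgtgggtggc
The match is centred 68 bases before the start, and its letters are a description and no measured binding site. The cyclic AMP response element TGACGTCA was in 0 of the 12 windows and in 1.79% of all.

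Totals ran from 31745630 to 45142355 estimated counts in the 11 mice with a group, and all 8 members passed the minimum of 10 reads in total. Levels are given as CPM, the estimated counts scaled to library size with TMM factors, and 7 members had a mean of at least 1 CPM, the exception being Ppara. The share of the RNA that comes from each cell type is not known in bulk tissue, so that fewer cells of a type and less RNA per cell cannot be told apart at any of the values below. Neuron markers were high in all mice, at 4562 to 5761 CPM summed over 8 genes, and the 6 amygdala nucleus markers summed to 280.3 to 551 CPM.

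**Figure D1:**
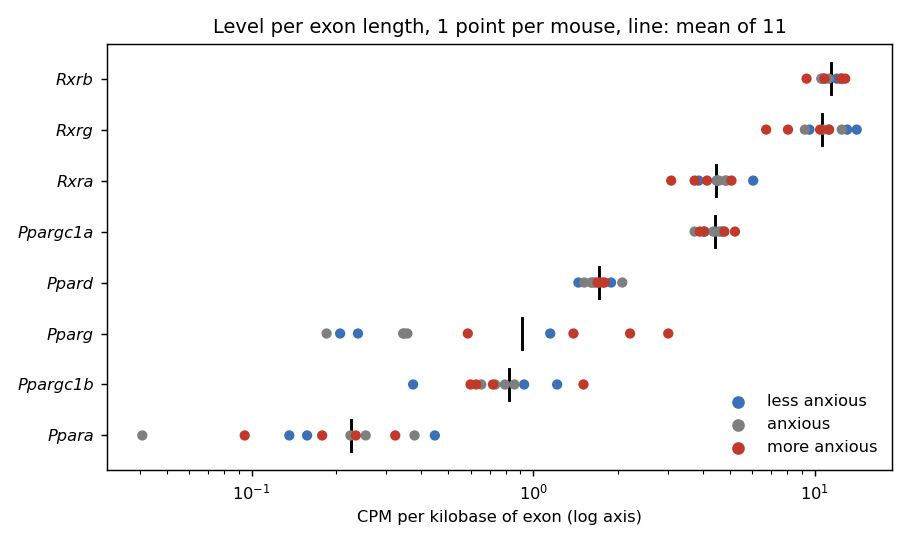
Level of each member as CPM per kilobase of exon on a log axis, with 1 point for each of 11 mice colored by group and a line at the mean. Rxrb and Rxrg lie highest with means of 11.4 and 10.6, and Ppara lies lowest at 0.224.

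RXR genes were far more abundant than PPAR genes. On the scale of CPM per kilobase of annotated exon, the 3 RXRs summed to 26.5 ± 3.21 (SD, n = 11), the 3 PPARs to 2.84 ± 0.973 and the 2 coactivators to 5.23 ± 0.424. Rxrb, the RXR found in nearly every tissue, had the highest mean level at 11.4, but Rxrg at 10.6 was above it in 4 of 11 mice, and that order was thus not fixed. Rxra at 4.47 was below Rxrg in 11 of 11 mice. Ppargc1a at 4.41 was above Rxra in 5 of 11 mice, so those neighbours did not differ beyond their spread.

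Ppard, the PPAR expressed most broadly in brain, had 1.71 CPM per kilobase and was below Ppargc1a in 11 of 11 mice. Pparg followed with 0.912, below Ppard in 9 of 11 mice, the exceptions being mice 2 and 10. Its mean was above that of Ppargc1b (0.819), yet Pparg was the higher of the pair in only 2 of 11 mice. Ppara, which drives fatty acid oxidation in liver, was lowest at 0.224 and was below Ppargc1b in 10 of 11 mice. These levels divide by the whole annotated exon length, which is longer than any single transcript, so they are approximate between genes.

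Members differed widely in how much they varied from mouse to mouse. The coefficient of variation of the CPM over 11 mice was 104% for Pparg, 54.5% for Ppara and 38.1% for Ppargc1b, compared with a median of 14.3% over the 15891 genes with a mean of at least 1 CPM. It was 20.4% for Rxrg and 17.3% for Rxra. Ppard (10.2%), Ppargc1a (9.92%) and Rxrb (9.60%) were below that median. The counts behind these values were small for the first of them, at 19 to 395 for Pparg and 6 to 62 for Ppara, and counting error then adds to the spread.

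**Figure D2:**
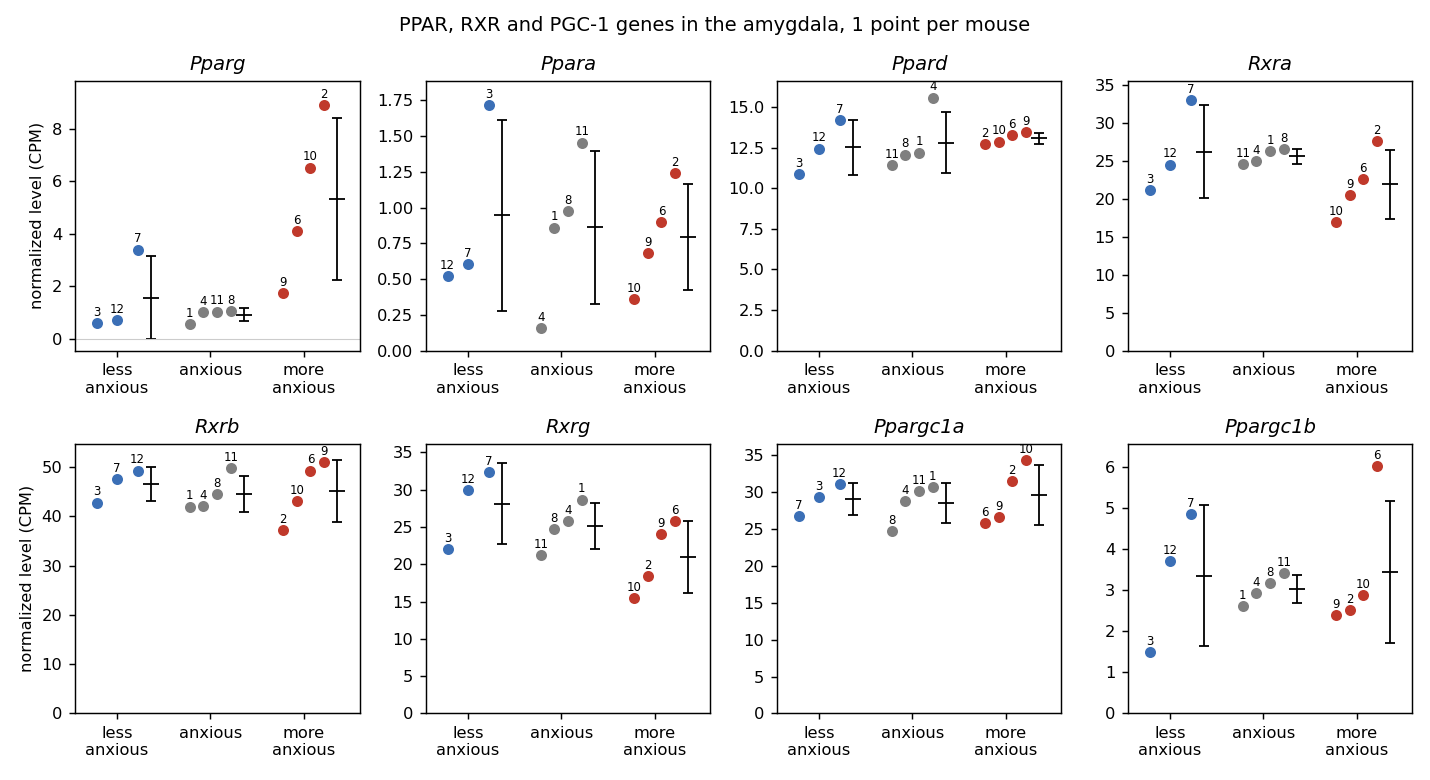
CPM of the 8 members, with 1 numbered point per mouse in the 3 groups, and the mean and SD of each group drawn beside the points. Pparg is at 1.73 to 8.91 CPM in the more anxious mice and at 0.545 to 1.06 in the anxious mice, and the values of the other members overlap between the more anxious mice and each other group.

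Pparg was high in the more anxious mice and low in nearly all others. The more anxious mice had 8.91 CPM (mouse 2), 4.10 (mouse 6), 1.73 (mouse 9) and 6.52 (mouse 10), and the less anxious mice had 0.609 (mouse 3), 3.40 (mouse 7) and 0.704 (mouse 12). The groups overlap through mouse 7, a less anxious mouse above mouse 9, and the anxious mice, at 0.545, 1.02, 1.06 and 1.03 (mice 1, 4, 8 and 11), all lay below the lowest more anxious mouse. Pparg was the 1 member of 7 with a mean of at least 1 CPM whose anxious and more anxious values lay fully apart (background 2.30% of 15891 genes), and it was chosen with this contrast known. The means were 5.32 ± 3.09 CPM (SD, n = 4) in the more anxious mice, 0.912 ± 0.245 (n = 4) in the anxious and 1.57 ± 1.58 (n = 3) in the less anxious mice. The order of the group means was therefore not that of the anxiety labels, since the anxious mice were lowest.

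In the fit with the first principal component (PC1) as a covariate, the log2 fold change of Pparg in more against less anxious mice was 1.82 (SE 0.58), and in anxious against less anxious mice it was -0.77 (SE 0.59). Leaving out mouse 7 raised the former to 2.75, and leaving out mouse 2 lowered it to 1.52. With edgeR's quasi-likelihood test across all genes, 0 of the 8 members were called between the groups at an adjusted p under 0.05 (background 0.00742% of 26963 genes), and 2, Pparg and Rxrg, had an unadjusted p under 0.05 (background 6.40%). DESeq2's likelihood ratio test called 1 of the 7 members that it gave an adjusted p, Pparg (background 1.30% of 15107 genes). The choice of the genes used this contrast, and nothing is read from these counts. Of the 7 members with a mean of at least 1 CPM, 0 had less anxious and more anxious values fully apart (background 10.0% of 15891 genes).

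Markers of adipocytes, the cell type best known for Pparg, were low in the tissue. The 6 markers summed to 1.69 to 2.56 CPM in less anxious, 1.27 to 1.98 in anxious and 1.17 to 1.62 in more anxious mice, and 5 of the 6 had a mean under 1 CPM. Of the 5 adipocyte markers tested, all had a negative fold change in more against less anxious mice, where that of Pparg was positive. The smallest of these log2 changes, -0.11 (SE 0.25) and -0.12 (SE 0.47), were below their errors. Retn had means of 1.05 CPM in less anxious, 1.14 in anxious and 0.997 in more anxious mice. Group means of the other tested adipocyte markers were at most 0.386 CPM (Lep, less anxious mice), so their signs say little. In anxious mice the means of Lep, Adipoq, Fabp4 and Plin1 were below those of less anxious mice, as for Pparg, and that of Retn was above. The summed endothelial markers, from another cell type in which Pparg is known, were at 112 to 138 CPM in more anxious and 154 to 206 in less anxious mice. Across 11 mice the Pearson r of log2 Pparg with the 11 cell type lists ran from -0.44 (pituitary) to 0.35 (neuron), and none passed adjustment. With the adipocyte markers r was -0.41, and -0.09 without mice 12 and 10. With the pituitary markers r was -0.71 without mice 4 and 11, and Spearman's rho was -0.74 (permutation p = 0.012, adjusted p = 0.50). The part of these cell types in the level of Pparg was not tested.

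The remaining PPARs showed no such pattern. Ppara was at 1.72, 0.604 and 0.522 CPM in less anxious mice 3, 7 and 12, at 0.860, 0.157, 0.974 and 1.45 in anxious mice 1, 4, 8 and 11, and at 1.24, 0.899, 0.683 and 0.362 in more anxious mice 2, 6, 9 and 10. All 3 groups overlap over most of their range, and the log2 fold change in more against less anxious mice was -0.05 (SE 0.68), or 0.51 without mouse 3. Ppard stayed between 10.9 CPM (mouse 3) and 15.6 CPM (mouse 4), with group means of 12.5 ± 1.67 in less anxious (SD, n = 3), 12.8 ± 1.87 in anxious (n = 4) and 13.1 ± 0.344 in more anxious mice (n = 4). Its log2 fold change was 0.04 (SE 0.13).

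The makeup of the PPAR pool differed from mouse to mouse. The share of Pparg in the summed level per kilobase of the 3 PPARs was 22.9% to 59.9% in more anxious, 9.09% to 16.1% in anxious and 9.81% to 36.0% in less anxious mice. The ratio of summed RXR to summed PPAR level was 4.46 to 10.6 in more anxious, 10.7 to 13.7 in anxious and 10.0 to 14.7 in less anxious mice. The highest ratio of the more anxious mice, 10.6 in mouse 9, was just under the lowest of the anxious mice, 10.7 in mouse 4. The ratios of the more and the less anxious mice overlapped. Pparg was chosen with this contrast known and enters both the share and the ratio. Neither is therefore evidence beyond the levels of Pparg itself.

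Rxrg and Rxra had lower mean levels in more than in less anxious mice, the opposite sign to Pparg. Rxrg, the RXR of striatal neurons and other restricted sites, was at 22.0, 32.4 and 30.0 CPM in less anxious mice 3, 7 and 12, at 28.7, 25.8, 24.7 and 21.2 in anxious mice 1, 4, 8 and 11, and at 18.5, 25.8, 24.0 and 15.4 in more anxious mice 2, 6, 9 and 10. The groups overlap, with mice 2 and 10 below all others and mice 7 and 12 above all others. The log2 fold change in more against less anxious mice was -0.47 (SE 0.17), and -0.63 to -0.35 with each mouse left out.

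Rxra, the main RXR of liver, skin and heart, was at 21.1, 33.0 and 24.5 CPM in less anxious mice 3, 7 and 12, at 26.3, 25.0, 26.6 and 24.6 in anxious mice 1, 4, 8 and 11, and at 27.6, 22.6, 20.5 and 16.9 in more anxious mice 2, 6, 9 and 10. The more anxious mice hold the lowest value, while mouse 2 lies above all but mouse 7, and the log2 fold change was -0.30 (SE 0.14). It was -0.18 without mouse 7 and -0.42 without mouse 2. Rxrb ran from 37.2 CPM (mouse 2) to 51.0 CPM (mouse 9), and both of these were more anxious mice. Its log2 fold change was -0.05 (SE 0.12), and 0.04 without mouse 2.

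Cell type markers were read in the same groups as a description, since the groups were cut from this expression. The 10 markers of striatal projection neurons all had a negative fold change in more against less anxious mice (median log2 -0.58). Their sum was 462 to 887 CPM in more anxious, 380.0 to 745 in anxious and 476 to 1294 in less anxious mice. These ranges overlap, and less anxious mouse 3 (476) was below more anxious mice 6 (887), 9 (682) and 10 (592). The high less anxious values were those of mice 7 (972) and 12 (1294). The astrocyte, oligodendrocyte, microglia and endothelium lists of 6 markers each also had 6 of 6 negative fold changes, with medians from -0.37 to -0.13, while the neuron list had 4 of 8 negative with a median of -0.02, and the median over all 26963 genes was 0.01. Across mice, the striatal markers had r = 0.56 with Rxrg and 0.11 with Rxra, and the microglia markers 0.62 and 0.18. In the same order, r was 0.39 and -0.12 for oligodendrocyte, 0.40 and 0.65 for astrocyte, and 0.59 and 0.42 for endothelium markers. The neuron markers had -0.27 and -0.62. For Rxra, r was 0.27 with astrocyte markers without mice 7 and 9, and -0.14 with neuron markers without mice 10 and 9. For Rxrg, r was 0.26 with striatal markers without mice 12 and 7. Without mice 7 and 2 it was 0.31 with microglia and 0.28 with endothelium markers. With astrocyte markers r of Rxrg was 0.21 without mice 7 and 9, and with neuron markers 0.26 without mice 10 and 9. It rose to 0.54 with oligodendrocyte markers without mice 11 and 8. These values are a description over 11 mice, and none passed adjustment. The part of these cell types in the levels of Rxrg and Rxra was not tested.

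The coactivators did not follow Pparg. Ppargc1a was at 24.7 CPM (mouse 8) to 34.3 CPM (mouse 10), with 29.1 ± 2.18 in less anxious (SD, n = 3), 28.6 ± 2.72 in anxious (n = 4) and 29.6 ± 4.06 in more anxious mice (n = 4), and a log2 fold change of 0.06 (SE 0.11). Ppargc1b (chr18:61298136-61400431, minus strand) was at 1.49, 4.85 and 3.70 CPM in less anxious mice 3, 7 and 12, at 2.61, 2.93, 3.17 and 3.42 in anxious mice 1, 4, 8 and 11, and at 2.50, 6.02, 2.39 and 2.87 in more anxious mice 2, 6, 9 and 10. Mouse 6 was highest and mouse 3 lowest, and the groups overlap throughout. The log2 fold change of Ppargc1b was -0.10 (SE 0.29), although the mean was 3.45 ± 1.73 CPM in more anxious (SD, n = 4) against 3.35 ± 1.71 in less anxious mice (n = 3). It was 0.03 without PC1 as covariate, 0.04 without mouse 2 and 0.09 without mouse 12, so it has no stable direction.

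**Figure D3:**
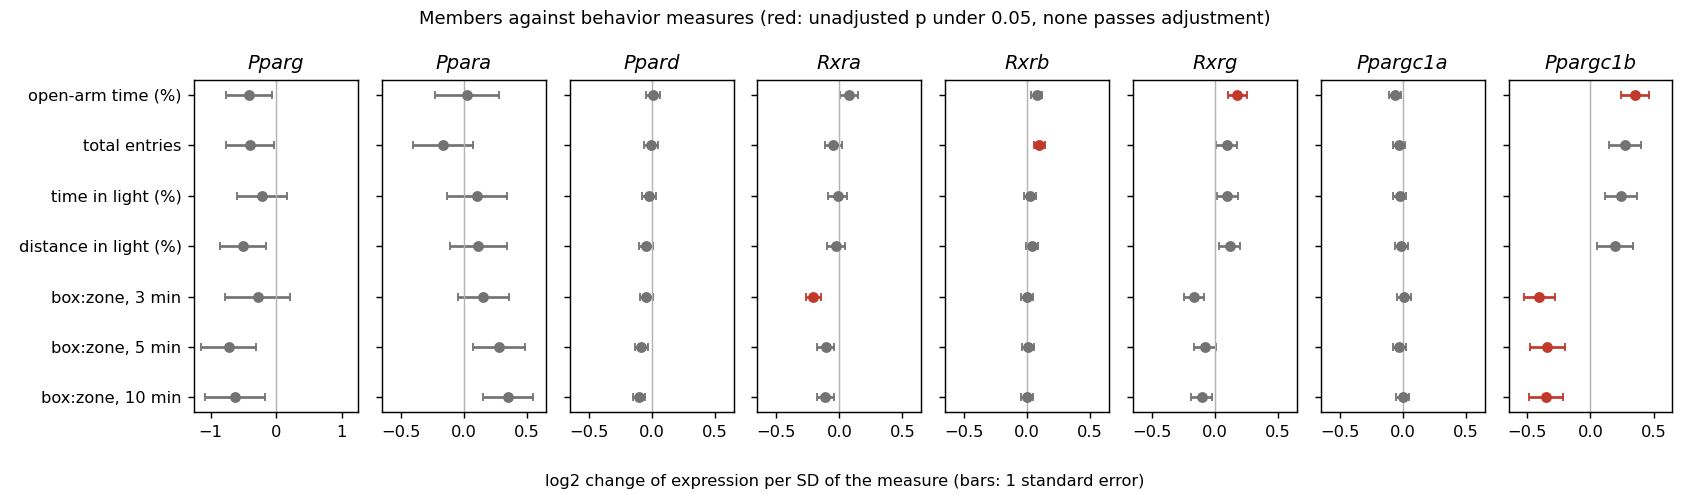
Log2 change of expression per standard deviation (SD) of each behavior measure for the 8 members, with bars of 1 standard error from edgeR and a wider axis for Pparg. The 7 red points have an unadjusted p under 0.05, 4 of them for Ppargc1b, and no point passes adjustment over all genes.

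Expression was next set against behavior, without the groups. The 7 measures were open-arm time (as a percentage) and total entries in the EPM, the percentages of time and of distance in the light in the LD, and the box:zone ratio of the SIT at 3, 5 and 10 min, which compares time in direct contact with a stranger mouse to time nearby. Of the 56 relations of 8 members with 7 measures, 0 were called by edgeR after adjustment over all genes, and 0 by DESeq2. The background of genes called by edgeR was 0% for open-arm time, total entries and distance in the light, 0.00742% for light time, and 0.0148%, 0.0111% and 0.0223% for the SIT at 3, 5 and 10 min. In edgeR, 7 of the 56 had an unadjusted p under 0.05 (12.5%, background 6.35% of 188737 relations of all genes), and the 7 measures are related to each other. The lowest adjusted p was 0.37.

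Ppargc1b held 4 of these 7 relations. Its slope on open-arm time was 0.35 log2 units per SD of the measure (SE 0.11, edgeR unadjusted p = 0.0055, adjusted p = 0.65), where 1 SD is 9.49 percentage points. Mouse 6, with the most open-arm time (29.2%), had the highest Ppargc1b, and the slope was 0.23 without it. In the SIT, the slopes of Ppargc1b on the box:zone ratio were -0.40 at 3 min (SE 0.12, edgeR unadjusted p = 0.0056, adjusted p = 0.43), -0.34 at 5 min (unadjusted p = 0.025) and -0.35 at 10 min (unadjusted p = 0.022). Mouse 3, with the lowest Ppargc1b and a ratio of 2.62 at 10 min, the highest there, bore on these, since without it the slopes were -0.29, -0.15 and -0.13. None of these relations passed adjustment.

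The RXRs gave the other 3. Rxra had a slope of -0.21 log2 units per SD on the box:zone ratio at 3 min (SE 0.06, edgeR unadjusted p = 0.0028, adjusted p = 0.37, 10 mice, since mouse 4 had no value), and the slope ran from -0.22 to -0.15 with each mouse left out. Rxrg had a slope of 0.18 on open-arm time (SE 0.07, edgeR unadjusted p = 0.028, adjusted p = 0.78), which was 0.12 without mouse 10. Rxrb had a slope of 0.10 on total entries (SE 0.04, edgeR unadjusted p = 0.037, adjusted p = 0.69), which was 0.05 without mouse 2. By measure, the members with an unadjusted p under 0.05 were 2 of 8 for open-arm time (background 5.90%), 1 for total entries (7.06%), 0 for light time (3.56%), 0 for light distance (5.84%), and in the SIT 2 at 3 min (7.57%), 1 at 5 min (6.52%) and 1 at 10 min (7.98%). With 8 genes, 1 relation is 12.5 percentage points, so these shares are coarse.

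Pparg, the member that differed most between the groups, had no relation to behavior with an unadjusted p under 0.05. Its 7 slopes were all negative, from -0.72 (5-min box:zone ratio, SE 0.42) to -0.21 (time in the light, SE 0.38), with unadjusted p-values of 0.12 to 0.59 in edgeR. The standard errors were large for Pparg, and all 7 slopes lay within 2 of them from 0. Without mouse 2, the mouse with the highest Pparg and the fewest entries, the slope on total entries turned from -0.40 to 0.62 and that on time in the light from -0.21 to 0.12. Ppara, Ppard and Ppargc1a also had 0 of 7 relations with an unadjusted p under 0.05, and the slopes of Ppargc1a were between -0.06 and 0.01.

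**Figure D4:**
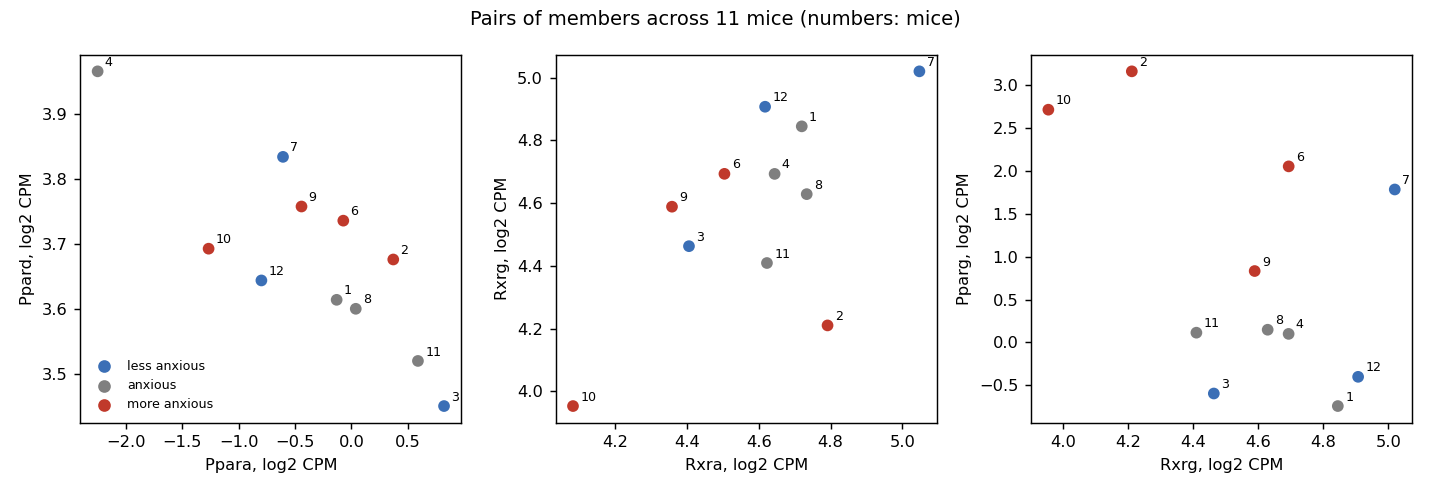
Log2 CPM of 3 pairs of members in 11 numbered mice colored by group. Ppara and Ppard run in opposite directions (r = -0.82) with mice 3 and 4 at the ends, Rxra and Rxrg have r = 0.64 with mice 10 and 7 at the ends, and Rxrg and Pparg (r = -0.50) are separated mainly by mice 2 and 10.

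Members were also compared with each other across the 11 mice. Of 28 pairs, none passed Benjamini-Hochberg adjustment over the pairs in a permutation test of Pearson's r. Ppara and Ppard had r = -0.82 (permutation p = 0.0021, adjusted p = 0.059) and Spearman's rho = -0.75 (permutation p = 0.011, adjusted p = 0.31). Without mice 4 and 10, which were farthest from the median of Ppara, r was -0.75, and without mice 4 and 3, the farthest on Ppard, it was -0.51, so the relation rests in part on those mice. Mouse 4 had 6 reads of Ppara. With DESeq2's size factors r was -0.84 (permutation adjusted p = 0.042) and with an offset for GC content it was -0.90 (permutation adjusted p = 0.010), so that the pair passed under these 2 scalings.

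Rxra and Rxrg had r = 0.64 (permutation p = 0.035, adjusted p = 0.49) and rho = 0.39 (permutation p = 0.24, adjusted p = 0.77), and r was -0.06 without mice 10 and 7, the farthest on Rxra, so the relation rests on those mice (r = 0.68 without mice 10 and 2, the farthest on Rxrg). Pparg and Rxrg had r = -0.50 (permutation p = 0.12, adjusted p = 0.65) and rho = -0.39 (permutation p = 0.24, adjusted p = 0.77). That r became 0.24 without mice 10 and 2, the farthest on both genes, so the relation rests on those mice. Among 88 relations of the members with the summed markers of 11 cell types, none passed adjustment (lowest permutation adjusted p = 0.61). The largest was that of Rxrg with the amygdala nucleus markers, with r = 0.71 (permutation p = 0.016, adjusted p = 0.61), rho = 0.80 (permutation p = 0.0048, adjusted p = 0.43) and r = 0.64 without mice 7 and 6. Ppargc1b had r = 0.67 with the same markers (permutation p = 0.022, adjusted p = 0.61) and rho = 0.52 (permutation p = 0.11, adjusted p = 0.56), but r was 0.23 without mice 7 and 6 and thus rests on them. The amygdala nucleus sum is mostly Wfs1 and Meis2, with group means of 186 to 243 and 101 to 138 CPM. Group means of its other markers lay between 5.15 (Crh) and 18.1 (Tac2), so these correlations say little about those markers.

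The genes whose log2 CPM was most like that of each member over the 11 mice, among genes with a mean of at least 1 CPM, are given with Pearson's r as a description. For Pparg these were Pcgf2 (0.91), 4921514A10Rik (0.89) and Hpn (0.89). For Rxrg they were Kif23 (0.88), Asic1 (0.88) and Crybg3 (0.87), for Rxra Gria1 (0.93), Rtl1 (0.90) and Gpr176 (0.89), and for Ppargc1b Fam45a (0.93), Slc35f6 (0.93) and Atp6ap1 (0.92). The highest r of a like gene was 0.92 for Ppara (Pms2), 0.97 for Ppard (Unc93b1), 0.96 for Rxrb (Gnb5) and 0.94 for Ppargc1a (Ago4). No member was in the 3 genes nearest to another.

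**Figure D5:**
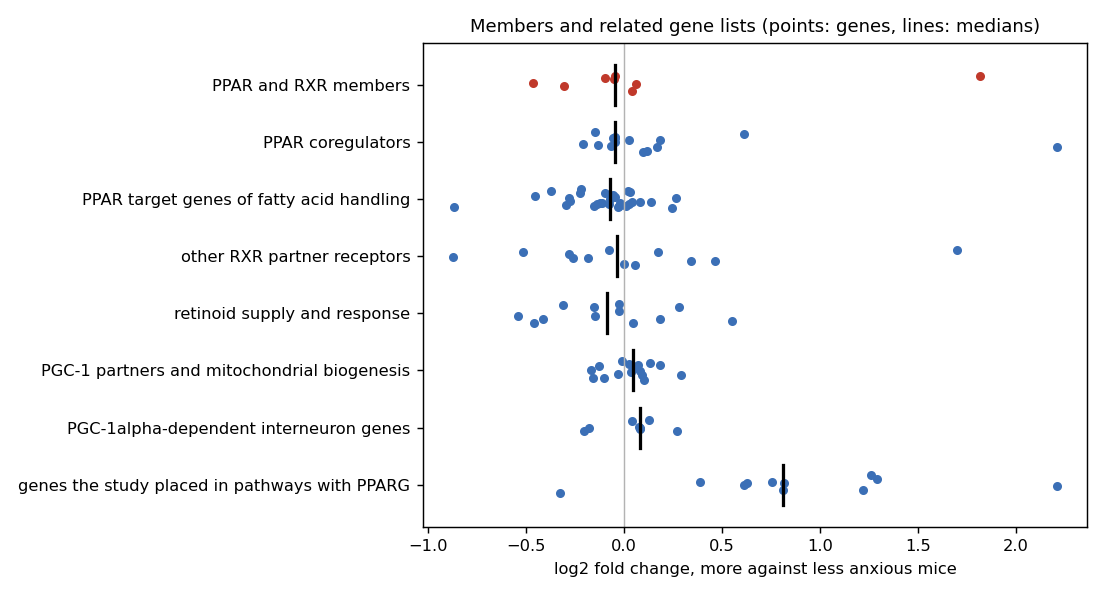
Log2 fold change in more against less anxious mice of the 8 members and of 7 related gene lists, with 1 point per gene and a line at each median. Medians lie between -0.09 and 0.08 in 6 of the lists, and at 0.81 in the list of genes that the study placed in pathways with PPARG, which it chose on these mice.

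Genes that act with PPARs and RXRs were read from lists, in the same fit of the groups, where the background at an unadjusted p under 0.05 was 6.40% and the median log2 fold change of all genes in more against less anxious mice was 0.01. With edgeR, 0 genes of these lists were called after adjustment. DESeq2 called 8 of the 96 list genes to which it gave an adjusted p (background 1.30%), and all 8 belong to the list that the study chose on these mice, with 0 of the other 85 called. The p tests both group coefficients together, and higher or lower below is the sign of the change in more against less anxious mice. Of 29 PPAR target genes of fatty acid handling, 0 were higher and 2 were lower at an unadjusted p under 0.05, and the median was -0.07. These were Cd36, a fatty acid transporter that PPARγ is known to induce in fat and macrophages (8.78 ± 3.56 CPM, SD, n = 3, in less anxious against 4.56 ± 1.32, n = 4, in more anxious mice, log2 fold change -0.87, SE 0.25), and Hadhb, a subunit of the mitochondrial trifunctional protein (log2 fold change -0.27, SE 0.10). In this contrast both had the opposite sign to Pparg, but 2 of 29 (6.90%) is near the background of 6.40%. In the anxious mice the means of Cd36 (6.26 CPM) and Hadhb (56.6, against 61.9 in less anxious mice) were also lower, as for Pparg. A link of these genes to Pparg was not tested.

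Of 16 PPAR coregulators, 2 were higher at an unadjusted p under 0.05 and 0 lower, with a median of -0.04. They were Scand1, a SCAN domain protein known to bind the PPARγ coactivator PGC-2 (3.51 ± 0.162 CPM, SD, n = 3, in less anxious against 16.2 ± 6.92, n = 4, in more anxious mice, though its reads cannot be surely told from those of the overlapping gene Cnbd2), and Cited2, a CBP and p300 binding protein that coactivates PPARs (22.2 ± 1.32 and 33.5 ± 5.37 CPM), and the study had itself placed both in pathways with PPARG. Of the 12 other RXR partner receptors tested, 0 were higher and 1, the retinoic acid receptor Rarb, was lower (log2 fold change -0.52, SE 0.24, with the lowest mean in the anxious mice), with a median of -0.04. Of 12 genes of retinoid supply and response, 1 passed, Cyp26a1, which breaks down retinoic acid. Its highest level was in the anxious mice (1.46 ± 0.258 CPM, SD, n = 4), and its log2 fold change in more against less anxious mice, 0.28 (SE 0.38), was smaller than its error. The median of that list was -0.09.

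The lists tied to PGC-1 stayed near the median of all genes. Of 16 PGC-1 partners and genes of mitochondrial biogenesis, 0 had an unadjusted p under 0.05, with a median of 0.05, and of 8 interneuron genes known to depend on PGC-1α, 1 passed, the synaptotagmin Syt2. Its level was lowest in the anxious mice (6.53 ± 1.02 CPM, SD, n = 4), and its log2 fold change in more against less anxious mice, -0.21 (SE 0.22), was smaller than its error. The list that the study had placed in pathways with PPARG had 10 of 11 genes higher and 1, Pik3r3, lower at an unadjusted p under 0.05, with a median of 0.81. It was chosen on these same mice and groups, so its direction is not independent evidence.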

How the data were processed

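Amygdala mRNA of 12 female mice was sequenced in 1 run with single-end reads of 75 bp. The authors checked reads against mm10, ran Salmon on transcripts, summed its estimates per gene and deposited estimated counts (expected counts) as whole numbers, without normalization. Annotation release, tool versions and strand setting are not given in the sources used here. Salmon divides reads between similar transcripts.

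Groups and behavior came from the labels, and mouse 5, without a group, was left out of all fits. GENCODE M21 (GRCm38) named 47310 genes (99.1%). Python 3.11.15 ran scipy 1.17.1 with pandas 2.3.3, numpy 2.4.6 and matplotlib 3.10.9, and R 4.3.3 ran DESeq2 1.42.0 and edgeR 4.0.16. The 26963 genes whose 11-mouse sum reached 10 reads entered edgeR's robust quasi-likelihood test, with TMM factors, both group coefficients together and PC1 (20.2% of the variance) as covariate. Behavior measures were standardized and fitted without covariate. Adjusted p-values are Benjamini-Hochberg over all genes and were called under 0.05. log2 CPM used a prior count of 2. Correlations used 100000 permutations, two-sided. The edgeR and DESeq2 fits were checked on simulated counts, with 200 genes altered, and the correlation tests were not. In the simulation the groups were not cut from expression, and a random covariate stood in for PC1. With 1 library per mouse, p-values measure the spread between animals.

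The members and the gene lists were chosen with earlier results of these data known. Named genes were all 8 members, the genes of each list that passed an unadjusted p under 0.05, and the genes most like each member. The plan was to name 3 such genes for Pparg, Rxrg and Ppargc1a only, though just the nearest is given for Ppargc1a. Those of the other members were chosen after their values were seen. Alternatives were DESeq2's size factors and test, no count filter, a GC offset, PC1 in or out, ranks of the measures, a prior count of 0.5 and each mouse left out.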

Additional observations from a re-analysis of the deposited data

Results flagged for a closer look

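In the 4 anxious mice, Pparg was lowest in mouse 1 at 0.545 CPM, while the other 3 lay together, so that the gap to the nearest was 0.928 of the range of the group. In the 4 more anxious mice, Ppargc1b was highest in mouse 6 at 6.02 CPM, with a gap of 0.867 of the range. Both exceed Dixon's critical value for 4 samples. Of 16 groups of 4 mice checked, 2 exceeded it, and chance gives about 1 in 20. Mouse 1 had 19 estimated counts of Pparg (95% counting limits 11.4 to 29.7). These limits overlap those of mouse 11 (34 counts, 23.5 to 47.5) and of mice 4 and 8 (39 counts each, 27.7 to 53.3). For Ppargc1b, the limits of mouse 6 (201 counts, 174 to 231) and of mouse 10, the nearest in CPM (103 counts, 84.1 to 125), did not overlap.

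Mouse 5, which has no group and entered no comparison, held reads of every member. The study had removed it as an outlier in a principal component analysis. Its library had 23768 genes with a read, against 26378 to 28196 in the 11 mice with a group. It had 21 estimated counts of Pparg, 23 of Ppara and 340 of Ppard, then 655 of Rxra, 1207 of Rxrb and 617 of Rxrg, and finally 1018 of Ppargc1a and 142 of Ppargc1b.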

How the results depend on the processing

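No member was called in any behavior fit under any alternative run or with any mouse left out. Between the groups, DESeq2 called 197 genes, 1 member (Pparg) and 8 list genes where edgeR called 2, 0 and 0. Without a count filter edgeR called 9 genes, and without PC1 it called 0. With each mouse left out, the groups gave 0 to 12 genes and 0 to 1 list genes. Genes called on behavior with edgeR were 0 for open-arm time (1 with DESeq2's size factors, 1 without filter, 2 with a GC offset, 43 by DESeq2), 0 for total entries (45 by DESeq2), 2 for time in the light (4 without filter, 1 with the GC offset, 0 with PC1, 0 on ranks, 15 by DESeq2), 0 for distance in the light (26 by DESeq2), and for the box:zone ratio 4 at 3 min (11 without filter, 2 with PC1, 161 by DESeq2), 3 at 5 min (7, 0 with PC1, 0 on ranks, 43 by DESeq2) and 6 at 10 min (10, 2 with PC1, 0 on ranks, 111 by DESeq2). With each mouse left out these ran over 0 to 3, 0 to 5, 0 to 16, 0 to 14, 2 to 7, 1 to 5 and 1 to 9 genes. The GC offset moved the log2 fold change of Rxrb to -0.27, and PC1 as covariate turned the 3-min slope of Pparg to 0.24. Pparg's slope ran from -0.55 to 0.62 on total entries and from -1.02 to 0.12 on time in the light with each mouse left out. DESeq2's size factors and the GC offset each called 1 member pair, and leaving out mouse 10 also gave 1 (0 to 1). The unadjusted relations of members with behavior numbered 6 to 10 with each mouse left out. The causes were not tested. No paired analysis was possible because the labels give the mice no replicate numbers shared between groups. Reads limit Ppara and Pparg most, and counting limits cover counting error only.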

Other observations

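The related gene lists were also set against the 7 behavior measures, with edgeR and without the groups, and 0 relations of any list were called after adjustment over all genes. At an unadjusted p under 0.05 there were 18 of 112 relations (16.1%) for the 16 PPAR coregulators, 19 of 203 (9.36%) for the 29 fatty acid target genes, 7 of 84 (8.33%) for the other RXR partner receptors, 6 of 84 (7.14%) for genes of retinoid supply and response, 12 of 112 (10.7%) for PGC-1 partners and genes of mitochondrial biogenesis, 7 of 56 (12.5%) for interneuron genes that depend on PGC-1α and 11 of 77 (14.3%) for the genes that the study placed in pathways with PPARG. The share over all genes was 6.35%. The study chose the genes of the last list on its groups, whose axis it took for its relation to the EPM and LD. The share of that list is thus not independent evidence. Its relations were 2 on open-arm time, 2 on total entries, 1 on light time and 6 on light distance, and 0 on each SIT ratio. Scand1 and Cited2 of that list are also among the coregulators. The relations of a list share mice, and several measures come from the same test, so these shares are a description.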
